A study of Mus musculus with 3 samples.

Results

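Mouse embryonic stem cells treated with a high dose of FGF4 were ranked along the path from naive to formative pluripotency, and the cells at its ends were compared. All cells came from 1 library, of E14tg2a cells (an established mouse embryonic stem cell line) of genotype Fgf4 -/- kept for 24 h in N2B27, a serum-free medium, with Chiron (CHIR99021, which inhibits the kinase GSK3 and so activates Wnt signalling), heparin and 50 ng/ml FGF4. Each intact cell received a score, the mean log2(UMIs per 10000 + 1) of the 6 naive genes Nanog, Tfcp2l1, Esrrb, Tbx3, Klf4 and Nr5a2 minus that of the 5 formative genes Dnmt3b, Otx2, Tcf15, Pou3f1 and Utf1. A UMI, or unique molecular identifier, marks 1 captured mRNA molecule. Of 975 cell barcodes, 798 were intact, meaning that at most 10% of their UMIs were mitochondrially encoded and that their total lay within 3-fold of the library median. Members were chosen by this score, from measured expression: the 199 cells with the highest score (25% of the intact cells) are called naive-most and the 199 with the lowest formative-most, so that 398 of the 2222 cells of the series were compared. The other libraries, at 0 and 5 ng/ml FGF4, held cells of the same genotype in the same medium with Chiron and heparin, and the same rule was applied within each of them.

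Naive pluripotency is the state of the inner cell mass and early epiblast, maintained by a network of transcription factors such as Nanog, Esrrb, Klf4 and Tfcp2l1. FGF4, secreted by the cells themselves, signals through FGF receptors and the kinase ERK and promotes exit from this state. Formative cells have dismantled much of the naive network, express Otx2 and the de novo DNA methyltransferases, and become competent to enter the germ layers, while Pou5f1 and Sox2 are expressed in both states.

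The score ran from -0.117 to 1.08 in naive-most cells (median 0.0540) and from -1.63 to -0.642 in formative-most cells (median -0.844). It formed 1 continuous distribution, so the end groups are ranges of the score. Whether they hold distinct cell types was not tested. The lowest naive-most cell stood at -0.11676 and the cell just outside at -0.11775, and the highest formative-most cell stood at -0.642245 and the cell just outside at -0.642093. Within 0.05 of the limits lay 78 and 70 cells. The genes of the score describe only the choice, and they are left out of every count that follows. Nanog, for example, had 169 CPM (counts per 1000000 UMIs) summed over the naive-most cells and 47.7 CPM over the formative-most cells, Tfcp2l1 had 101 and 22.2 CPM, Tcf15 had 53.7 and 151 CPM, and Otx2 had 2.94 and 36.4 CPM. Across intact cells the naive and the formative mean of the score had a Pearson correlation of -0.0991 without FGF4 (359 cells), -0.401 at 5 ng/ml (706 cells) and -0.389 at 50 ng/ml (798 cells), with both means of a cell divided by the same UMI total.

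**Figure D1:**
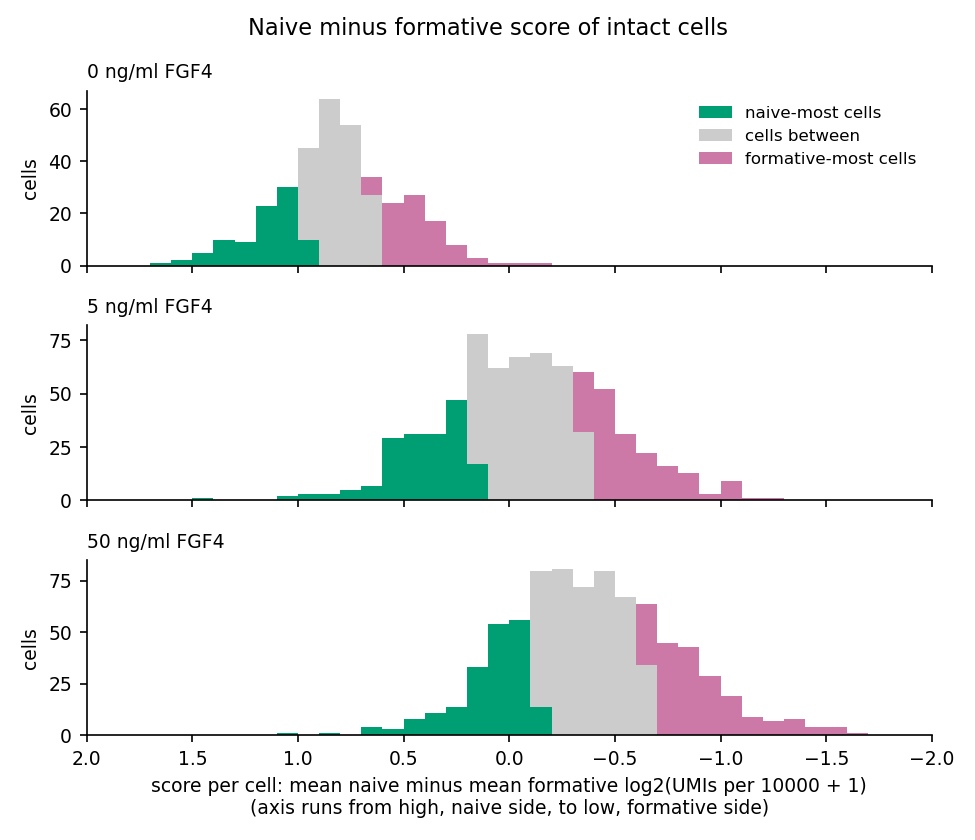
Score of each intact cell in the libraries at 0, 5 and 50 ng/ml FGF4 (x axis, running from high to low, in log2 units; y axis, number of cells), with the naive-most cells of each library in green and the formative-most cells in purple. Both groups lie at the ends of 1 continuous distribution in each library, and its median was 0.817 without FGF4, -0.0847 at the low dose of 5 ng/ml and -0.369 at 50 ng/ml.

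Even the naive-most cells at 50 ng/ml scored low beside cells without FGF4. Of these 199 cells, 2 were above the median of the 0 ng/ml library and 4 were above the upper limit of that library's formative-most cells, whereas 176 were above the median of the 5 ng/ml library. All 199 formative-most cells were below the lowest cell at 0 ng/ml, which stood at -0.142. Each dose was 1 library, so dose and library cannot be told apart.

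The end groups were close in depth and in RNA quality. Naive-most cells held a median of 92750 UMIs and formative-most cells 94030, and the summed UMIs were 19043043 and 19306781. Mitochondrially encoded UMIs made up a median of 5.66% in naive-most and 5.32% in formative-most cells, and 25000 UMIs drawn from each cell covered a median of 4996 and 4888 genes. Scrublet, a doublet caller, marked 7 naive-most and 2 formative-most cells, which were kept. The 3 libraries held 42726514, 75184072 and 81409975 UMIs at 0, 5 and 50 ng/ml, in 373, 874 and 975 barcodes, and no pair of them shared a barcode. There was 1 library per dose and cells of a library are not replicates, so no test was made; the 95% intervals on ratios and levels cover counting error only.

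Of 5571 genes that reached 20 CPM in naive-most or formative-most cells, 187 (3.36%) were at least 1.5-fold higher in naive-most cells and 73 (1.31%) were at least 1.5-fold lower. The genes that led the higher side encode the junctional adhesion molecule Jam2, signalling molecules (Fgf4, Epha4, Adap1) and the AKT coactivator Tcl1. On the lower side stood the heparan sulfate 6-O-sulfotransferase gene Hs6st2, the kinase gene Pim2, the imprinted gene Peg10 and the transcription factor genes Lef1 and Sox11. Most genes differed little: the median log2 ratio of the tested genes was 0.01, and 95% of them lay between -0.42 and 0.67. At a 2-fold limit 48 genes were higher and 27 lower. Levels were ordered over 4 groups of cells along the score in 161 of the 187 higher genes and in 63 of the 73 lower ones. Of all tested genes 33.0% were ordered either way. The called genes were chosen by the difference between the end groups, which makes an order likely, so these counts only describe them.

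Among genes of at least 20 CPM the largest ratio belonged to Calcoco2, whose human counterpart NDP52 is an autophagy receptor. It had 33.4 CPM in naive-most cells (95% interval 30.9 to 36.1) and 4.51 CPM in formative-most cells (3.61 to 5.56), a ratio of 7.41 (5.92 to 9.38). Per cell, its level ran from 0 to 4.97 UMIs per 10000 with a median of 0.107 in naive-most cells, and from 0 to 0.477 with a median of 0 in formative-most cells. The ranges of the groups therefore overlapped, as they did for every gene whose cell levels are given here. Calcoco2 lies at chr11:96099326-96111964 on the minus strand of GRCm38, the assembly also named mm10.

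Jam2, Epha4 and Spp1 encode proteins of the cell surface or the extracellular space. Jam2, a junctional adhesion molecule, had 71.3 and 17.2 CPM in naive-most and formative-most cells, a ratio of 4.13 (3.66 to 4.67), with medians of 0.546 and 0.135 UMIs per 10000. Epha4, an ephrin receptor, had 34.0 CPM in naive-most against 11.4 CPM in formative-most cells, a ratio of 2.98 (2.55 to 3.49). For the secreted adhesion protein gene Spp1 (osteopontin), the highest of these in UMIs, the levels were 192 CPM in naive-most and 72.3 CPM in formative-most cells, 2.65-fold (2.49 to 2.82), and the medians per cell were 1.75 and 0.579 UMIs per 10000.

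Fgf4 transcripts were themselves 3.34-fold higher in naive-most cells (2.84 to 3.94), at 33.8 CPM against 10.1 CPM in formative-most cells. Fgf4 encodes the ligand that was added to the medium, and it is the gene targeted in this line. Its 3' tags were present in all libraries, with 51.9 CPM over the intact cells at 0 ng/ml. The stretch of Fgf4 missing from the allele is not given in the sources used here, so these tags do not check the genotype. They give the abundance of a transcript from the targeted gene and nothing on its protein.

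The other leading genes covered varied functions. Adap1, which encodes a GTPase-activating protein for ARF6, was 5.26-fold higher (4.22 to 6.61) in naive-most cells, and Ahnak, a very large scaffold protein gene, was 3.59-fold higher (3.02 to 4.27). Tcl1, an AKT coactivator gene expressed in embryonic stem cells, had 42.8 CPM in naive-most and 16.0 CPM in formative-most cells, a ratio of 2.67 (2.34 to 3.06). Ly75, which encodes an endocytic receptor, was 2.70-fold higher, and Tubb3, the neuronal beta-tubulin gene, was 2.84-fold higher (2.47 to 3.28). Klhl13, an X-linked gene for an adaptor of the cullin 3 ubiquitin ligase, had 81.2 CPM in naive-most and 26.8 CPM in formative-most cells, 3.03-fold (2.74 to 3.36).

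A set of 3 of these genes is shown with their promoters because each holds the letters CCCCACCC, a core of the box bound by KLF factors, of which Klf4 is a gene of the score. Among the other named genes with a listed promoter, Tubb3 and Klhl13 of the higher side hold it too, as do Lef1 and Pde2a of the lower side, some of them at only part of their starts. Adap1, Ahnak, Fgf4 and Spp1 of the higher side, and Hs6st2, Pim2, Sox11, Bst2 and Cntfr of the lower side, do not. The windows run from 250 bases before to 50 bases after the start of the gene, 5′ to 3′ on the gene's strand, from RefSeq on GRCm38.p6, with the box on either strand in capitals. They are chr1:77515039-77515338 (minus strand) for Epha4, chr2:60383224-60383523 (minus strand) for Ly75 and chr12:105222688-105222987 (minus strand) for Tcl1.
Epha4: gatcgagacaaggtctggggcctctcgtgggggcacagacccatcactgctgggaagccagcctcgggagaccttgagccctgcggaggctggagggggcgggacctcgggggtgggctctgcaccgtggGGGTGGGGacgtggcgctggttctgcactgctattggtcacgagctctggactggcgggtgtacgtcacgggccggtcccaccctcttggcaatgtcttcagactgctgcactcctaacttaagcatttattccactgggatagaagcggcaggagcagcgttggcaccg
Ly75: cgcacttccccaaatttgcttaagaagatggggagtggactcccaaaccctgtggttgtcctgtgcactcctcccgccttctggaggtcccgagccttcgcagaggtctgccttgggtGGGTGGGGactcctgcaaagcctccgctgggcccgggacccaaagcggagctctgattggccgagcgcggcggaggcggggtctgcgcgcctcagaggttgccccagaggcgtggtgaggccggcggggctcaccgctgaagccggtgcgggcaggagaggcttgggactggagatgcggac
Tcl1: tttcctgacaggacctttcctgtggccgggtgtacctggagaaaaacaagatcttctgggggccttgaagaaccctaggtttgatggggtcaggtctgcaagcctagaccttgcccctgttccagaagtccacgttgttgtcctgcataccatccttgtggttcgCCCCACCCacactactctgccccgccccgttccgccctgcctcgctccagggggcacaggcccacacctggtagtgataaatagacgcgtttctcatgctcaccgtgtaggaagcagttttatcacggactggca
The box CCCCACCC or its reverse GGGTGGGG stood in 22.2% of 203 promoters of the higher genes, in 16.1% of 87 promoters of the lower genes and in 11.5% of 5636 promoters of all tested genes, with a gene counted once per listed start. The longer nuclear receptor half-site CAAGGTCA or TGACCTTG, of the kind bound by Esrrb and Nr5a2, stood in 3.45%, 0% and 1.06% of the same promoters. The higher genes that held it were Ak1, Lifr, Msrb2, Sema4b, Sgk1 and Trim2. The ETS site CCGGAAGT or ACTTCCGG stood in 0.985% of the higher, 3.45% of the lower and 10.6% of all promoters, and GGATTA or TAATCC, the core read by OTX proteins, in 6.90%, 4.60% and 5.78%. Promoters had a median G and C content of 61% for higher, 62% for lower and 61.3% for all tested genes. A match describes letters within these windows and no binding.

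**Figure D2:**
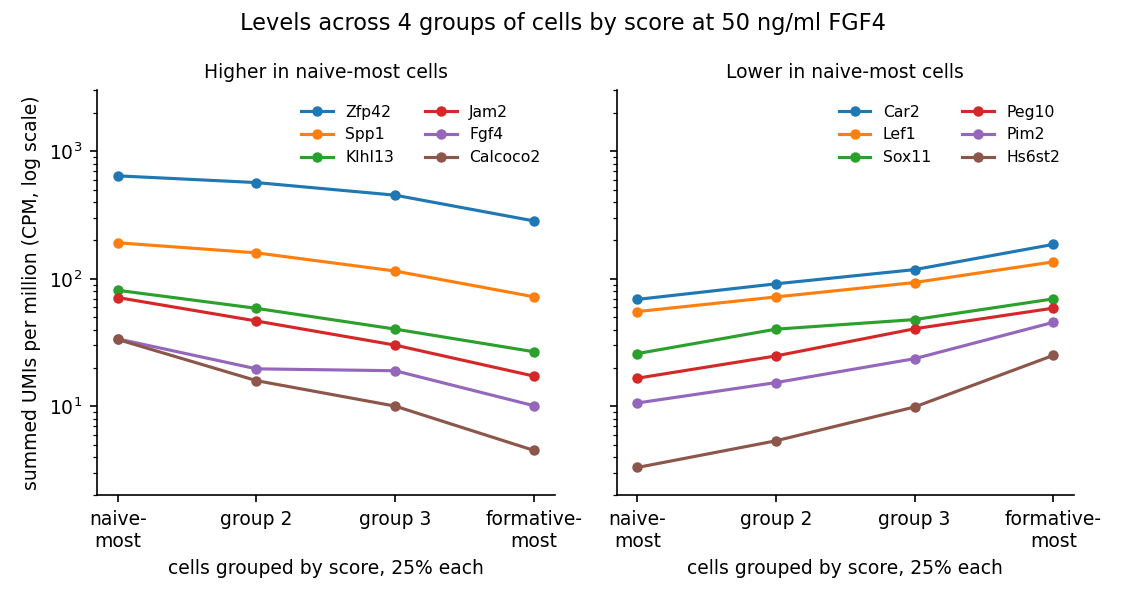
Summed UMIs as CPM (y axis, log scale) of 6 genes higher and 6 genes lower in naive-most cells, in 4 groups holding 25% of the 50 ng/ml cells each, ordered from naive-most to formative-most (x axis). The levels of Calcoco2 were 33.4, 15.9, 10.0 and 4.51 CPM and those of Hs6st2 were 3.31, 5.36, 9.87 and 25.1 CPM, so each gene was intermediate in the cells between the ends.

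On the lower side, the largest difference among genes of at least 20 CPM belonged to Hs6st2, an X-linked gene at chrX:51387212-51681856 (minus strand) whose enzyme adds 6-O-sulfate groups to heparan sulfate, a modification that takes part in binding of FGFs to their receptors. It had 3.31 CPM in naive-most cells (2.54 to 4.23) and 25.1 CPM in formative-most cells (22.9 to 27.4), 7.58-fold lower in naive-most cells (5.82 to 10.0). The median naive-most cell had 0 UMIs per 10000 and the median formative-most cell 0.171. Over all intact cells of the 0 ng/ml library it had 0.830 CPM.

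Among signalling and metabolic genes, the kinase gene Pim2 was 4.29-fold lower in naive-most cells (3.68 to 5.03), with 10.6 CPM against 45.5 CPM in formative-most cells. Naprt, which encodes an enzyme that makes NAD from nicotinic acid, was 3.70-fold lower (2.99 to 4.61). Pde2a, a cyclic nucleotide phosphodiesterase gene, was 2.76-fold lower (2.35 to 3.24), and Cntfr, a receptor subunit gene of the LIF cytokine family, 2.42-fold lower (2.11 to 2.78). Car2, carbonic anhydrase 2, had 68.9 CPM in naive-most and 186 CPM in formative-most cells, 2.70-fold lower (2.54 to 2.88), with medians per cell of 0.595 and 1.54 UMIs per 10000. Bst2, tetherin, was 2.45-fold lower (2.21 to 2.72).

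Developmental regulators completed the lower side. Lef1, the transcription factor through which beta-catenin acts on Wnt targets, had 55.3 CPM in naive-most and 136 CPM in formative-most cells, 2.46-fold lower (2.28 to 2.64), and its median per cell was 0.455 and 1.23 UMIs per 10000. Sox11 had 25.9 and 69.6 CPM in naive-most and formative-most cells, 2.69-fold lower (2.42 to 2.99). Fst, which encodes the activin antagonist follistatin, was 2.70-fold lower (2.24 to 3.26). Hotairm1, a long non-coding RNA of the HoxA cluster, was 2.74-fold lower (2.31 to 3.26). Strand use in counting is not given in the sources used here, so its reads may not be separable from those of overlapping genes.

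For 5 lower genes (T, Ptcra, Ddit4, Gfod2 and Lhfpl4) and 2 higher genes (Chpt1 and Fry), the 2 cells with most UMIs held over 20% of the UMIs of the higher group. T (brachyury), the mesoderm and streak regulator, had 6.30 CPM in naive-most and 24.1 CPM in formative-most cells, but 2 cells held 22.1% of the UMIs of the formative-most cells. Such ratios depend in part on few cells. T had UMIs in 68 naive-most and 104 formative-most cells, and its ratio ran from 0.207 to 0.348 over the processing alternatives given below.

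**Figure D3:**
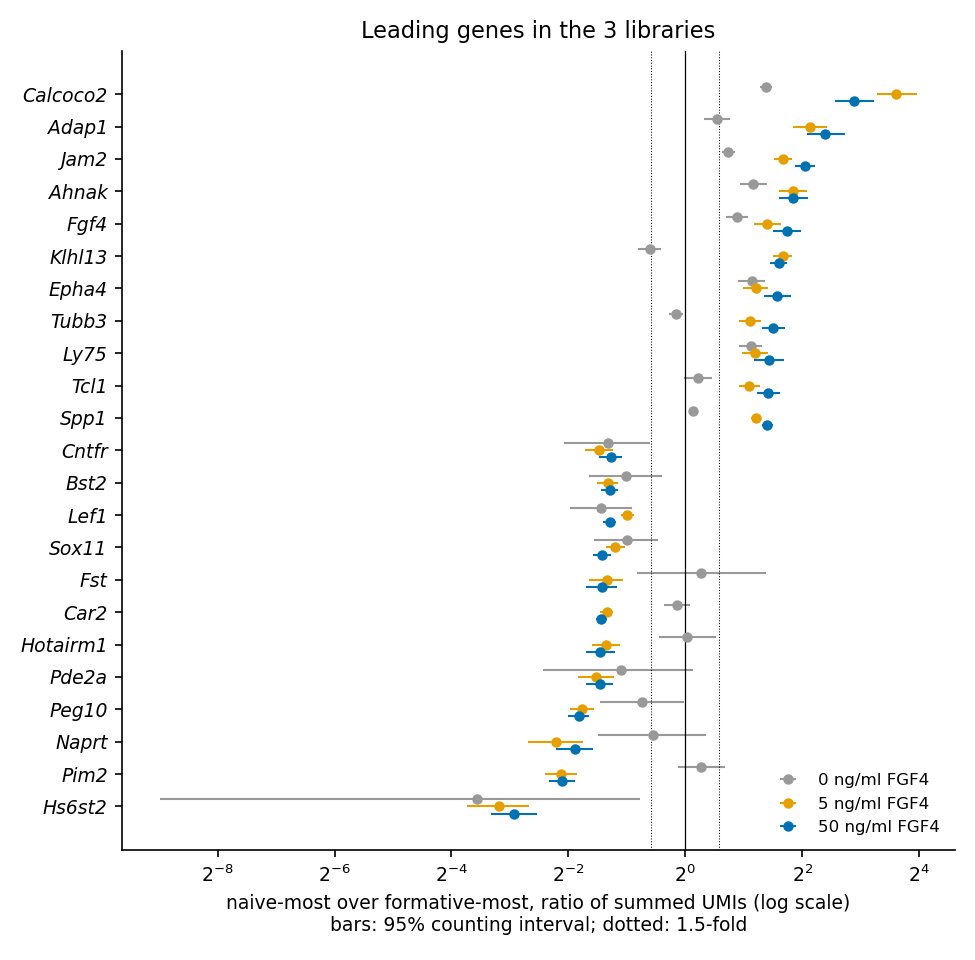
Ratio of summed UMIs, naive-most over formative-most (x axis, log scale, 95% counting interval as bars), of 23 genes with the largest ratios at 50 ng/ml in either direction, in the libraries at 0, 5 and 50 ng/ml. Points at 5 and 50 ng/ml stand on the same side for every gene, with Calcoco2 at 12.2 and 7.41 and Hs6st2 at 0.110 and 0.132, while the 0 ng/ml points of Klhl13 (0.655), Tubb3 (0.894), Pim2 (1.21), Fst (1.20) and Hotairm1 (1.03) stand on the other side of 1.

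Naive genes that were not in the score went with it for the most part. Of 17 listed members, 15 reached 5 CPM in naive-most or formative-most cells, 7 were at least 1.5-fold higher in naive-most cells and 1 was lower, with a median log2 ratio of 0.46; over all 9267 genes at that level the shares were 6.04% and 1.96% and the median was 0.03. Members near 5 CPM enter through the group in which they are high, so such counts are descriptions of the list. Zfp42 (Rex1), a classical marker of the naive state, had 642 CPM in naive-most and 284 CPM in formative-most cells, 2.26-fold (2.19 to 2.33), and its level per cell ran from 0.502 to 14.4 with a median of 6.15 UMIs per 10000 in naive-most cells and from 0 to 9.59 with a median of 2.5 in formative-most cells. Klf2, a KLF factor of the naive network, was 1.83-fold higher (1.76 to 1.90), Fbxo15 was 2.12-fold higher (1.97 to 2.30), Sox15 1.85-fold, and the adhesion molecule gene Pecam1 1.56-fold higher (1.39 to 1.75). A group of 4 members stood below or at 1. Dppa3 had a ratio of 0.929 (0.831 to 1.04), Tdh 0.993 (0.969 to 1.02) and Nr0b1 0.998 (0.937 to 1.06), and Gbx2, a LIF-STAT3 target in mouse embryonic stem cells, had 31.3 CPM in naive-most against 62.1 CPM in formative-most cells, 1.98-fold lower (1.80 to 2.19).

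Genes of general pluripotency differed little. None of the 10 measured members reached 1.5-fold, and the median log2 ratio was 0.06. Over all genes of at least 5 CPM 6.04% were that much higher and 1.96% lower. At these shares few of any 10 genes would reach the limit, so this count does not set the list apart. Pou5f1 had 372 CPM in naive-most and 378 CPM in formative-most cells, a ratio of 0.984 (0.952 to 1.02), and Sox2 had 331 and 297 CPM, a ratio of 1.12 (1.08 to 1.16). Lin28a, an RNA-binding protein gene that blocks let-7 maturation, stood at 0.796 (0.759 to 0.835), and Dppa5a at 1.31 (1.29 to 1.33).

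Formative genes outside the score were divided. Of 15 measured members, 5 were at least 1.5-fold lower in naive-most cells (1.96% of all genes of at least 5 CPM) and 1 was higher (6.04%). The median log2 ratio was -0.29. Besides Lef1 and Sox11, Grhl2, a transcription factor gene of epithelial enhancers, had 10.8 CPM in naive-most and 22.9 CPM in formative-most cells, 2.12-fold lower (1.79 to 2.51). Lin28b, a let-7 regulator gene, lay at the limit, 1.50-fold lower (1.27 to 1.78). Dnmt3a, a de novo DNA methyltransferase gene, was 1.55-fold lower (1.45 to 1.66), at 74.8 against 116 CPM, while Dnmt3l, its cofactor without catalytic activity, was 1.22-fold lower (1.17 to 1.29). Zic2 went the other way, 1.53-fold higher in naive-most cells (1.38 to 1.70), and Sox4 and Tead2 had ratios of 0.996 and 0.998.

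The readout of FGF and ERK signalling was uneven. Of 15 measured members, 11 stood below 1, with a median log2 ratio of -0.42. At 1.5-fold 3 were lower in naive-most cells and 2 higher, against 1.96% and 6.04% of all genes of at least 5 CPM. Spry2, a feedback inhibitor of receptor signalling, had 39.8 CPM in naive-most and 70.7 CPM in formative-most cells, 1.78-fold lower (1.62 to 1.94), and medians per cell of 0.335 and 0.623 UMIs per 10000. Dusp4, an ERK phosphatase gene, was 2.79-fold lower (2.29 to 3.42), at 7.14 against 19.9 CPM, and Myc was 2.36-fold lower (2.01 to 2.78). A further 3 targets came close to the limit: Etv4, an ETS factor gene, was 1.48-fold lower (1.38 to 1.58), Dusp6 1.46-fold (1.26 to 1.70) and Spry4 1.44-fold (1.28 to 1.63). Etv5, by contrast, was 1.13-fold higher in naive-most cells (1.08 to 1.18), but 0.983 with cells ranked by the formative genes of the score alone. The higher members were Egr1 (1.66, 1.31 to 2.11) and Phlda1 (1.69, 1.26 to 2.28), in both of which the 2 richest cells held 17.6% of the UMIs of the higher group. The ratio of Egr1 was 0.826 with all barcodes and 0.901 with Tbx3 left out of the score. Over the whole list, the summed level per cell had a median of 7.44 UMIs per 10000 in naive-most and 8.44 in formative-most cells, and the ranges overlapped (3.33 to 13.7 and 3.83 to 16.2).

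Several LIF and BMP pathway genes stood higher at the naive end. Of 7 measured members of the LIF and STAT3 list, 2 were at least 1.5-fold higher in naive-most cells and 1 was lower. Over all genes of at least 5 CPM these shares were 6.04% and 1.96%. The higher ones were Stat3 at 1.83 (1.52 to 2.22) and the receptor gene Lifr at 1.57 (1.34 to 1.84), and the lower one was Cntfr. The median log2 ratio of the list was 0.53. Its summed level per cell did not differ in this way, with a median of 2.30 UMIs per 10000 in naive-most and 2.32 in formative-most cells. Bmp4, which encodes a secreted ligand, had 32.6 CPM in naive-most and 16.0 CPM in formative-most cells, 2.04-fold (1.77 to 2.34), and of 5 measured members of the BMP list 2 reached 1.5-fold. The other was the target Id1, 1.73-fold higher (1.39 to 2.16), while Id3 was at 1.07 (0.990 to 1.16). Ratios of Bmp4 and Id1 fell below 1, to 0.973 and 0.847, when cells were ranked by the formative genes of the score alone. Nodal was 1.63-fold higher (1.45 to 1.83), and its feedback inhibitor gene Lefty1 was at 1.34 (1.21 to 1.50), or 0.948 with Utf1 left out of the score. Lefty2 went the other way, with a ratio of 0.799. Of 8 measured members of the Nodal list 5 stood above 1 and 3 below. At 1.5-fold 2 were higher in naive-most cells and 1 was lower, against 6.04% and 1.96% of all genes of at least 5 CPM. Wnt targets were not raised as a list. Of 7 measured members 2 stood above 1 and 5 below, with a median log2 ratio of -0.07. At 1.5-fold 1 was higher and 0 were lower, against the same 6.04% and 1.96%. Notum, which encodes a secreted Wnt inhibitor, was 2.43-fold higher (2.04 to 2.89) and Axin2 stood at 1.18 (1.07 to 1.31).

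**Figure D4:**
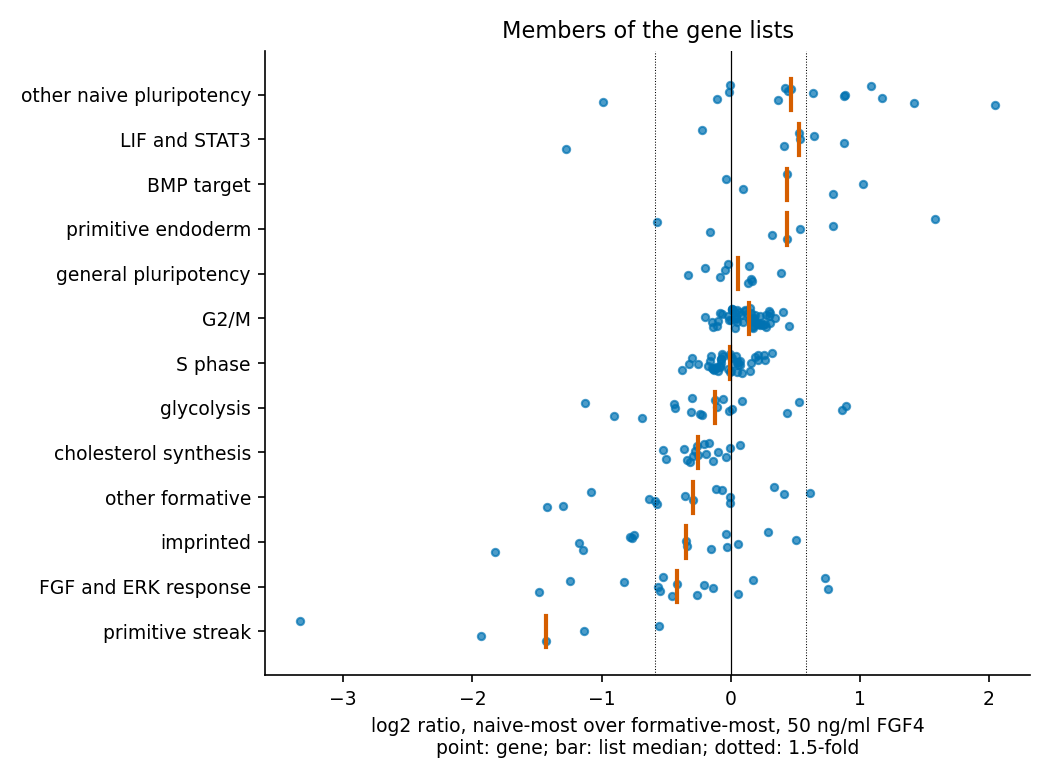
Log2 ratio of each measured gene, naive-most over formative-most at 50 ng/ml (x axis), in 13 gene lists (rows), with the median of each list as a vertical bar and 1.5-fold as dotted lines. The medians run from 0.53 for LIF and STAT3 genes and 0.46 for naive genes outside the score to -0.42 for FGF and ERK response genes and -1.43 for primitive streak genes.

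Measured primitive streak genes were lower at the naive end. Of 15 listed primitive streak genes, 5 reached 5 CPM, and all 5 had ratios below 1, with a median log2 ratio of -1.43. At least 1.5-fold lower were 4 of them, against 1.96% of all genes at that level. They include T, with 22.1% of its formative-most UMIs in 2 cells, and Wnt8a, which reached 5 CPM in formative-most cells alone. Members under 5 CPM went both ways at low counts. Evx1, Mixl1, Wnt3 and Mesp1 had fewer UMIs in naive-most cells, and Gsc, Foxa2, Fgf8 and Tbx6 had more. Lhx1 and Msgn1 had 0 in both groups. Wnt8a, a Wnt ligand gene of the streak, had 1.42 CPM in naive-most and 14.3 CPM in formative-most cells, 10.1-fold lower (6.78 to 15.6), with 27 UMIs in 21 naive-most cells and 276 UMIs in 112 formative-most cells. Its level lay under the 20 CPM limit. Cdx2 was 2.20-fold lower (1.78 to 2.71), and Eomes 1.47-fold (1.18 to 1.84). The summed level of the list was low in both groups, with a median per cell of 0.288 UMIs per 10000 in naive-most and 0.616 in formative-most cells. The 2 measured neuroectoderm genes stood on the other side, Tubb3 with the ratio given above and Pax6, a transcription factor gene, 2.08-fold higher in naive-most cells (1.53 to 2.84), or 0.719 with cells ranked by the formative genes of the score alone.

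Several imprinted genes, which are expressed from 1 parental allele, stood on the lower side as well. Of 14 measured members 11 had ratios below 1 and 3 above it, with a median log2 ratio of -0.34. None was at least 1.5-fold higher in naive-most cells and 6 were lower, against 6.04% and 1.96% of all genes of at least 5 CPM. Meg3, Rian and Mirg among the 6 share 1 locus. Peg10 had 16.6 CPM in naive-most and 58.8 CPM in formative-most cells, 3.55-fold lower (3.13 to 4.03). The neighbouring non-coding RNA genes Meg3 and Rian on chromosome 12 were 1.70-fold (1.62 to 1.77) and 1.71-fold (1.58 to 1.85) lower, and Mirg of the same locus was 1.68-fold lower (1.42 to 2.0). Meg3 reached 168 CPM in naive-most and 285 CPM in formative-most cells, with medians per cell of 1.27 and 2.35 UMIs per 10000. Cdkn1c, a cyclin-dependent kinase inhibitor gene, was 2.25-fold lower (2.02 to 2.51). Kcnq1ot1, a non-coding RNA of the Cdkn1c domain, did not share this pattern and had a ratio of 1.04 (1.00 to 1.08). Impact and Zrsr1 stood above 1 too, at 1.22 and 1.42.

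Cholesterol synthesis genes differed in small steps and several glycolysis genes by more. None of 17 cholesterol synthesis genes reached 1.5-fold, yet 16 had ratios below 1 and the median log2 ratio was -0.25. Fdps, which makes farnesyl diphosphate, had 188 CPM in naive-most and 234 CPM in formative-most cells, 1.24-fold lower (1.19 to 1.30). Srebf2, which encodes the transcription factor that activates this pathway, was among the 73 lower genes. In glycolysis 2 of 19 genes were higher and 3 lower by 1.5-fold, against 6.04% and 1.96% of all genes of at least 5 CPM. Ldhb, a lactate dehydrogenase subunit gene, was 1.82-fold higher in naive-most cells (1.73 to 1.90), while Ldha, the other main subunit gene, was 1.35-fold lower (1.33 to 1.37). Lower too were the glucose transporter gene Slc2a1, 1.87-fold (1.74 to 2.0), the lactate exporter gene Slc16a3, 2.18-fold (1.89 to 2.52), and Pdk1, whose kinase holds back pyruvate dehydrogenase, 1.61-fold (1.51 to 1.71). Respiratory chain genes had a median log2 ratio of -0.01.

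Cell cycle genes differed by less than 1.5-fold throughout. None of 43 S phase and 53 G2/M genes reached it, while 6.04% of all genes of at least 5 CPM were that much higher and 1.96% lower. Above 1 stood 44 of the 53 G2/M genes, with a median log2 ratio of 0.14. By their S and G2/M scores, 94 of 199 naive-most cells (47.2%, exact binomial interval 40.1 to 54.4%) fell in the G2/M class, and 70 of 199 formative-most cells (35.2%, 28.6 to 42.2%). With each cell thinned to 25000 UMIs the shares were 44.2% and 34.2% (37.2 to 51.4% and 27.6 to 41.2%). The intervals overlapped with all UMIs and with thinned cells alike, and they cover only the counting of cells within 1 library. In thinned cells of the other libraries the shares were 50% and 34.1% at 5 ng/ml, and 46.1% and 38.2% at 0 ng/ml. With the 50 ng/ml end groups taken within each cycle class, 175 genes were at least 1.5-fold higher and 74 lower, against 187 and 73.

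Markers of other cells were detected in part. Of 12 fibroblast genes 1, Fbln1, reached 5 CPM, at 58.9 CPM in naive-most and 54.5 CPM in formative-most cells, and Col3a1, Postn and S100a4 had 0 UMIs in both groups; the summed list ran from 0 to 1.57 UMIs per 10000 per naive-most cell and from 0 to 1.63 per formative-most cell. Of 21 primitive endoderm genes 7 were measured. Fn1 (fibronectin) had the most UMIs of them, at 172 CPM in naive-most and 128 CPM in formative-most cells, a ratio of 1.35 (1.28 to 1.42), and had UMIs in all 199 cells of each group. Nid1 and Sparc, both basement membrane genes that stem cells express too, were 3.00-fold (2.34 to 3.86) and 1.73-fold (1.58 to 1.90) higher in naive-most cells. Nid1 had 260 UMIs in naive-most and 88 in formative-most cells. Lamb1 and Lrp2 went the other way, with ratios of 0.673 and 0.893. Of the 7 measured members 5 stood above 1 and 2 below. At 1.5-fold 2 were higher in naive-most cells and 0 were lower, against 6.04% and 1.96% of all genes of at least 5 CPM. Summed over that list, levels ran from 1.44 to 7.0 UMIs per 10000 in naive-most and from 0.833 to 7.54 in formative-most cells. Gata6, the defining regulator of this lineage, had 72 UMIs in naive-most cells, of which 50 were in 1 cell, and 7 UMIs in formative-most cells, and Sox17 had 0 and 2 UMIs. The part of such cells in the ratios of Fn1, Nid1 and Sparc was not tested.
The trophectoderm list had 4 of 11 genes measured and ran from 0 to 1.81 UMIs per 10000 in naive-most and from 0 to 3.25 in formative-most cells, with Elf5 at 0 UMIs in both groups. The neuroectoderm list had 2 of 10, Tubb3 and Pax6, and ran from 0 to 2.17 and from 0 to 1.73, with Neurog2 at 0 UMIs. Of the 2-cell-like genes none was measured; Zscan4c and Zscan4d had 92 UMIs each in naive-most cells, 38 and 45 of them in the richest cell for each gene, and 5 and 10 UMIs in formative-most cells.

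The 5 ng/ml library, whose cells took no part in choosing these genes, gave its own naive-most and formative-most groups of 176 cells each, and most of the genes differed in it as well. Of the 187 higher genes 181 had at least 20 CPM there, 180 lay on the same side of 1 and 129 (71.3%) were at least 1.5-fold higher, which is 65.8% of the 196 higher genes of that library (3.47% of 5642 tested). Of the 73 lower genes 60 were tested there, 58 lay on the same side and 46 (76.7%) were at least 1.5-fold lower, or 59.0% of the 78 lower genes (1.38%). Over the 5485 genes tested in both libraries, 47.1% stood above 1 and 52.9% below it at 5 ng/ml. The same 11 genes ranked the cells in each library. Calcoco2 had 53.8 and 4.41 CPM in naive-most and formative-most cells at 5 ng/ml, a ratio of 12.2, and Hs6st2 had 1.98 and 18.0 CPM, 9.07-fold lower. Jam2 stood at 3.17, Fgf4 at 2.65, Pim2 at 0.230 and Peg10 at 0.293.

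In the 0 ng/ml library, with 89 cells per group, fewer of the genes differed. Of 174 higher genes tested there 153 lay on the same side and 30 (17.2%) were at least 1.5-fold higher, or 30% of the 100 higher genes of that library (1.76% of 5694), and of 26 lower genes tested 18 lay on the same side and 6 (23.1%) were at least 1.5-fold lower, or 8.22% of the 73 lower genes (1.28%). Over all 5275 genes tested in both libraries, 1.23% were at least 1.5-fold higher and 0.777% lower at 0 ng/ml, and 56.2% stood above 1 and 43.8% below it. The lower count rests on the 26 of 73 genes that reached 20 CPM in either group at 0 ng/ml. Calcoco2 (2.60), Ahnak (2.24), Epha4 (2.19), Ly75 (2.17), Fgf4 (1.84) and Jam2 (1.66) were higher in naive-most cells in all libraries. Cdkn1c and Soat1 alone were at least 1.5-fold lower in all of them, against 24 genes that were higher.

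**Figure D5:**
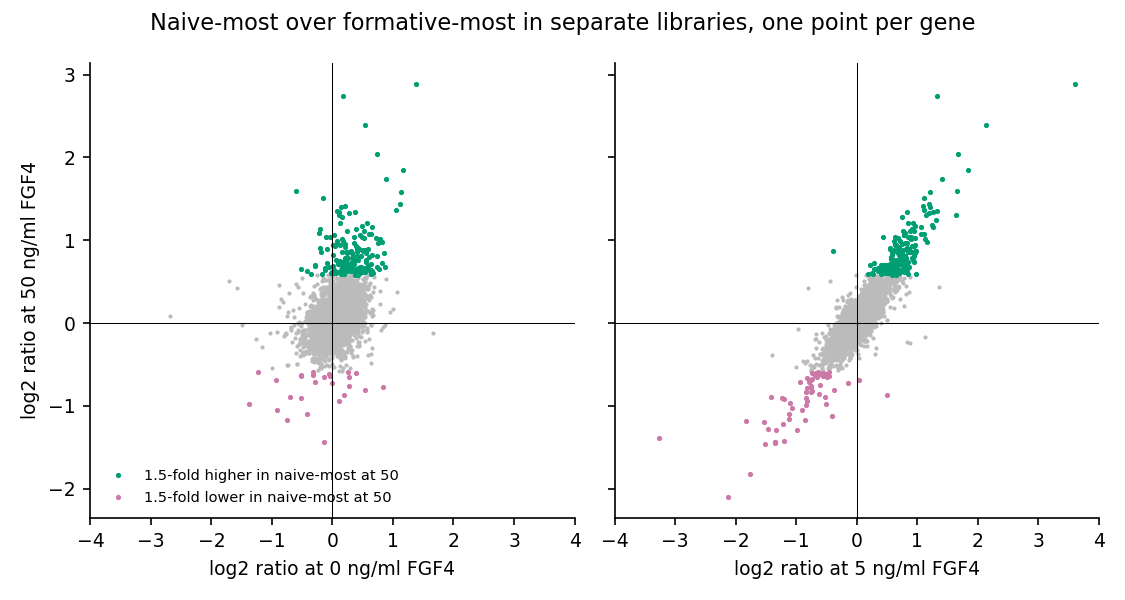
Log2 ratio of each gene, naive-most over formative-most, at 50 ng/ml (y axis) against the same ratio at 0 ng/ml (left) and 5 ng/ml (right), for genes with at least 20 CPM in both libraries of a panel. Genes at least 1.5-fold higher (green) or lower (purple) at 50 ng/ml lie on the same side at 5 ng/ml in 180 of 181 and 58 of 60 cases, and at 0 ng/ml in 153 of 174 and 18 of 26; other genes are grey.

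Levels in the naive-most cells at 50 ng/ml lay between those of the other end and those without FGF4 for many of these genes. For 130 of the 187 higher genes (69.5%) the naive-most level was below the level over all intact cells at 0 ng/ml, as it was for 41.0% of all tested genes, and for 66 of the 73 lower genes (90.4%) it was above it, against 59.0% of all tested genes. Jam2 had 71.3 CPM in naive-most cells at 50 ng/ml and 134 CPM in intact cells at 0 ng/ml, and Calcoco2 had 33.4 and 186 CPM. Lef1 had 55.3 CPM in naive-most cells at 50 ng/ml and 8.87 CPM at 0 ng/ml. Klhl13 and Tcl1 were exceptions among the named higher genes, with 81.2 and 42.8 CPM in naive-most cells at 50 ng/ml against 34.4 and 35.1 CPM at 0 ng/ml. These levels are compared between single libraries, each scaled to its own total.

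Naive-most cells at 50 ng/ml differed from each other slightly more than formative-most cells did. Distance was 1 minus the Pearson correlation of log2(UMIs + 1) between cells of a group, each thinned to 25000 UMIs, over 7936 genes at 50 ng/ml. Its mean was 0.278 in naive-most and 0.279 in formative-most cells at 0 ng/ml, a difference of -0.00134. At 5 ng/ml it was 0.275 and 0.265, a difference of 0.0107, and at 50 ng/ml 0.269 and 0.260, a difference of 0.00855. Between a naive-most and a formative-most cell at 50 ng/ml the mean distance was 0.268, no more than that among naive-most cells.

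Genes of the higher side spanned a median of 30.6 kb in the genome, those of the lower side 15.6 kb and all tested genes 22.7 kb. Within 100 kb of each other lay 11 pairs of adjacent higher genes, among them Ak1 and Eng on chromosome 2, and 3 pairs of lower genes, among them Meg3 and Rian on chromosome 12.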

How the data were processed

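Counts of UMIs per gene and cell barcode were deposited, 1 matrix per library, made by the authors with Cell Ranger 4.0.0 per the file headers and aligned to mm10 per the submitters' processing notes. Neither the annotation release nor the selection of barcodes is given in the sources used here. Per the labels, each was a 10x Genomics 3' library, and trypsin or Accutase had released the cells, with no statement of which library had which.

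Cells were filtered and ranked as described, and the score genes were left out. UMIs were summed over each end group and scaled to its total (CPM). Ratios carry 95% conditional binomial intervals, levels exact Poisson intervals and shares exact Clopper-Pearson intervals. A gene was tested for a 1.5-fold ratio if it reached 20 CPM in either end group, and a list member was measured from 5 CPM. The score genes, the 30 gene lists and the rules were chosen with earlier results of these data known. In each direction the 12 largest ratios with an interval that excluded 1 were named, without predicted and ribosomal protein genes and those with over 20% of UMIs in 2 cells; list members were added. Of these, 1 higher gene is not reported here. Genes named outside this rule (Srebf2, Soat1, Ak1, Eng and those with the half-site) were chosen after their values were seen. Coordinates came from GENCODE M21 (GRCm38), in which 32158 of 32285 gene identifiers matched, and promoters from RefSeq. Calculations used Python 3.11.15, NumPy 2.4.6, SciPy 1.17.1 and scanpy 1.11.5 (Scrublet), and edgeR 4.0.16 gave TMM factors; the ratio calculation was tested on simulated data. Alternatives were other scalings, wider and narrower end groups, the naive or formative score genes alone, each score gene left out, strata of cycle, depth and mitochondrial share, other limits and other cell filters.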

Additional observations from a re-analysis of the deposited data

Results flagged for a closer look

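Some values differed in sign or side between the 50 ng/ml library and another library of the same design; each value comes from 1 library, and the differences were not tested. Rian, the imprinted RNA gene next to Meg3, had a ratio of naive-most over formative-most cells of 1.79 (1.43 to 2.25) at 0 ng/ml and 0.584 (0.540 to 0.631) at 50 ng/ml. Klhl13, the cullin 3 adaptor gene, stood at 0.655 (0.569 to 0.753) at 0 ng/ml and 3.03 (2.74 to 3.36) at 50 ng/ml. The difference in mean cell-to-cell distance, naive-most minus formative-most, was -0.00134 at 0 ng/ml and 0.00855 at 50 ng/ml.

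The median log2 ratio of the FGF and ERK response list was 0.13 at 0 ng/ml and -0.42 at 50 ng/ml, over 8 and 15 measured genes. Imprinted genes had medians of 0.24 at 0 ng/ml and -0.34 at 50 ng/ml, p53 targets -0.15 and 0.15, germline genes -0.39 and 0.16, and neuroectoderm genes, of which 3 and 2 were measured, -0.16 and 1.28. The FGF ligand and receptor list had a median of -0.13 at 5 ng/ml and 0.10 at 50 ng/ml.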

How the results depend on the processing

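All 24 genes chosen by size of ratio stayed at least 1.5-fold apart on the same side in all 26 alternatives run for gene ratios. The counts of genes higher, lower, also called at 5 ng/ml and also called at 0 ng/ml were 187, 73, 175 and 36, and limits and quantiles moved them most. They were 380, 149, 324 and 101 for end groups of 10% of cells, 560, 182, 458 and 127 at 5 CPM, 29, 12, 32 and 3 at 100 CPM, 556, 264, 553 and 222 at a log2 ratio of 0.32, and 48, 27, 41 and 5 at 2-fold. With end groups of 33.3% 113 and 16 genes were also called at 5 and 0 ng/ml. With the formative score genes alone 99 genes were higher and 92 and 23 were also called at 5 and 0 ng/ml. The count at 0 ng/ml was 58 with the naive score genes alone and 21 with a score on thinned cells. TMM scaling gave 149 higher and 91 lower genes. Totals without mitochondrial and ribosomal protein genes gave 269 and 101, and median-of-ratios scaling gave 181 and 73.

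These medians of log2 ratios, all positive at first, turned negative: FGF ligand and receptor genes (10% groups -0.16, formative genes alone -0.0908, all barcodes -0.0657, without Nanog -0.0253, without Dnmt3b -0.00154, without Otx2 -0.0239, members of at least 20 CPM -0.0649), retinoid genes (thinned score -0.0137, formative genes alone -0.0870, without Dnmt3b -0.0649), immediate early genes (naive genes alone -0.0828, all barcodes -0.0341, without Tbx3 -0.0634), p53 targets (naive genes alone -0.14, without Tbx3 -0.00208), germline genes (10% groups -0.0845) and Nodal genes (without Utf1 -0.0766), and, with the formative genes alone, BMP targets (-0.0388), G2/M genes (-0.0108) and DNA methylation genes (-0.11). Among list members and leading genes at least 1.5-fold apart, ratios crossed 1 for Lhfpl4 (1.09, naive genes alone), for Pax6 (0.719), Id1 (0.847), Bmp4 (0.973) and Rhox6 (0.825) with the formative genes alone, and for Egr1 (0.826 with all barcodes, 0.901 without Tbx3); the cause was not tested. Several smaller ratios crossed 1 as well, among them Id3 (0.872) and Etv5 (0.983) with the formative genes alone, Id3 with all barcodes (0.956) and Lefty1 without Utf1 (0.948). The distance difference ran from 0.00608 to 0.00921 over its alternatives. End groups taken within 3 classes of the mitochondrial share, an alternative chosen after seeing the data, gave 174 higher and 70 lower genes. No paired analysis was possible because each dose was 1 library. Genes under 5 CPM in both groups were left out of list counts and have UMIs but no ratio.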
